A study of Mus musculus with 15 samples.

Results

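The 10 genes described here mark or serve the alternative activation of macrophages and the IL-10 axis. They were taken as a list of names, *Mrc1*, *Cd163*, *Chil3*, *Retnla*, *Clec10a*, *Mgl2*, *Il4ra*, *Il10*, *Il10ra* and *Folr2*, and no threshold on a measured value was used. All 10 were among the 51763 genes of the count table, and 7 of them were among the 16919 genes that passed a filter on low counts and were tested. *Chil3*, *Retnla* and *Mgl2* did not pass it and are given by their reads.

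RNA was sequenced from bone marrow-derived macrophages (BMDMs) of wild-type female C57BL/6NTac mice aged 8 to 10 weeks. Marrow was matured with M-CSF, for 10 days by the sample labels and for a shorter time by the study's methods, and the cells of 5 mice were pooled before seeding. They were stimulated for 24 h, with 3 libraries in each of 5 conditions. The libraries of a condition are therefore technical replicates of 1 pool, and every SD, standard error and p-value below measures how cultures and libraries of this pool vary, and says nothing of how mice vary.

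The control received PBS. A second condition received fully reduced HMGB1 (frHMGB1, 5 µg/mL) and another disulfide HMGB1 (dsHMGB1, 5 µg/mL), redox forms of the nuclear protein HMGB1 that acts as a danger signal outside the cell. The frHMGB1 was made in house in buffers with DTT, and the dsHMGB1 came from another laboratory and was made without DTT. Redox form, source and buffer therefore cannot be told apart. A further condition received LPS (LPS-EK, 1 µg/mL), a bacterial ligand of TLR4. The last received LPS with 20 ng/mL IFNγ (LPS/IFNγ), the classical M1 stimulus. Its LPS dose is stated as 1 µg/mL where the labels list the treatment, but as 100 ng/mL in the protocol they quote and in the study's methods, so in LPS/IFNγ against LPS the added IFNγ and a lower LPS dose cannot be told apart. No condition received IL-4, IL-13 or IL-10.

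Alternative activation is the macrophage state that IL-4 and IL-13 set through the receptor chain IL-4Rα and the transcription factor STAT6. In mouse macrophages its textbook targets are the mannose receptor (*Mrc1*), the chitinase-like protein Ym1 (*Chil3*), the resistin-like protein Fizz1 (*Retnla*) and the galactose-type lectins (*Clec10a* and *Mgl2*). IL-10 is a cytokine that dampens inflammation. Macrophages release it after TLR4 signalling and respond to it through IL-10Rα and STAT3. CD163, the scavenger receptor for haemoglobin-haptoglobin, and folate receptor beta (*Folr2*) are surface proteins of resident and anti-inflammatory macrophages.

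Libraries held 40934540 to 80925478 counted reads. Of the macrophage markers, all 8 had reads in every condition, with a summed level between 13520 CPM (reads scaled to the library total) in LPS/IFNγ and 27280 CPM in frHMGB1. Most of the sum was *Lyz2*, with means of 9307 CPM in LPS/IFNγ and 20360 CPM in frHMGB1. In mean CPM, *Lyz2*, *Csf1r*, *Cd68* and *Itgam* were lower in LPS/IFNγ than in PBS, and *Mertk*, *Cd14*, *Fcgr1* and *Adgre1* were higher. Neutrophil markers summed to at most 5.56 CPM with *S100a9*, *Ly6g* and *Mpo* at 0, and lymphocyte markers to at most 0.152 CPM. Markers of eosinophils, basophils and mast cells summed to 4.10 to 10.9 CPM. Most of this was *Siglecf* (means of 4.18 to 9.36 CPM), and *Epx*, *Fcer1a* and *Ms4a2* were at 0. Those of fibroblasts summed to 118 to 282 CPM with all 6 genes present, most of it *Col1a1* and *Col1a2*, while *Lum* had means of at most 0.0848 CPM. Dendritic cell markers were highest in LPS/IFNγ, at 13.9 to 15 CPM against 3.35 to 8.73 CPM elsewhere. Fewer cells of a type and less RNA per cell cannot be told apart in these bulk samples. PBS replicate 3 stood apart from its group, with a Pearson correlation of 0.939 and 0.944 to the other PBS libraries across genes against 0.995 to 0.999 for all other pairs of replicates. Across genes, the deviation of dsHMGB1 replicate 1 from its group mean correlated with that of PBS replicate 3 (r = 0.735). Some of the members' calls and gene list counts that turned on PBS replicate 3 are given with and without it.

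The STAT family binds palindromic sites of the form TTCNNNGAA, and STAT6 also the wider form TTCNNNNGAA. The 250 bases upstream of the RefSeq start (GRCm38.p6) were searched for both forms in the 7 members that the promoter table holds. They are shown for *Retnla* and *Chil3*, the IL-4 targets with almost no reads in these cells, and for *Il4ra*, the member receptor gene with the largest rise over PBS in LPS and in LPS/IFNγ. *Ccl17*, an IL-4 target outside the list that was called higher than PBS in dsHMGB1 and LPS, is shown too. Bases are written 5′ to 3′ on the strand of the gene, and capitals mark the match. The windows are chr16:48842359-48842608 on the plus strand (*Retnla*), chr3:106167565-106167814 on the minus strand (*Chil3*), chr8:94810203-94810452 on the plus strand (*Ccl17*) and chr7:125552021-125552270 on the plus strand (*Il4ra*).
Retnla: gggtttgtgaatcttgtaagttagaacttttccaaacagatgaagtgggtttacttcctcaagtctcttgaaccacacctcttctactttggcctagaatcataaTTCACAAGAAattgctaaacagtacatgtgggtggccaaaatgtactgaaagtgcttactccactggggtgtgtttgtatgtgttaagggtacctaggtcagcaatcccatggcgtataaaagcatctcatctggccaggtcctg
Chil3: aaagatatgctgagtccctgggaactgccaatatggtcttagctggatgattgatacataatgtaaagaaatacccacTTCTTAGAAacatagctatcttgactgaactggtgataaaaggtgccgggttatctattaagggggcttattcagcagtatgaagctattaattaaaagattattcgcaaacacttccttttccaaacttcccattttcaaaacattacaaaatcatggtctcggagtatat
Ccl17: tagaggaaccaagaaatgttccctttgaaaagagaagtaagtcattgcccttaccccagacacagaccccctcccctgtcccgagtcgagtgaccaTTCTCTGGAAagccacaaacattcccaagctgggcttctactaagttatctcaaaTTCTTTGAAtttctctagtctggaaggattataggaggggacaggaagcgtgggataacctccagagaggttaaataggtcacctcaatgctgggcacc
Il4ra: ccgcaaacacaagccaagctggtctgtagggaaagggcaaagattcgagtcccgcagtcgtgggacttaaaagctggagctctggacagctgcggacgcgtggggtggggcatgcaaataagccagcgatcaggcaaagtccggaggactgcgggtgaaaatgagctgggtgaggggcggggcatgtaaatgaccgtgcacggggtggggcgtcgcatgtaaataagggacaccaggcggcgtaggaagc

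The *Retnla* window held the wider form at bases -145 to -136 from the start, and the *Chil3* window the narrower form at -172 to -164. The *Ccl17* window held both, the wider at -154 to -145 and the narrower at -99 to -91. Neither form was found in the windows of *Il4ra*, *Mrc1*, *Cd163*, *Mgl2* or *Folr2*. By the gene positions given below, *Il4ra* starts at 125552120 and *Retnla* at 48842551, each inside its window. Part of the *Il4ra* and *Retnla* windows thus lies within the gene by those positions. Over all 32851 promoter windows, 5.85% held the wider and 7.02% the narrower form. A match is a string of letters and not a measured binding site.

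In resting BMDMs (PBS) the members covered a wide range of levels. Per kb of exon, *Il10ra* was highest at 1963 normalized counts, followed by *Mrc1* at 799, *Il4ra* at 606 and *Folr2* at 226. *Clec10a* (29.4), *Il10* (21) and *Cd163* (7.42) were low on the same scale. All other levels below are normalized counts of a gene, which compare conditions and not genes. A gene is called higher or lower when edgeR's quasi-likelihood test gives a Benjamini-Hochberg adjusted p under 0.05 over all 16919 genes.

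**Figure D1:**
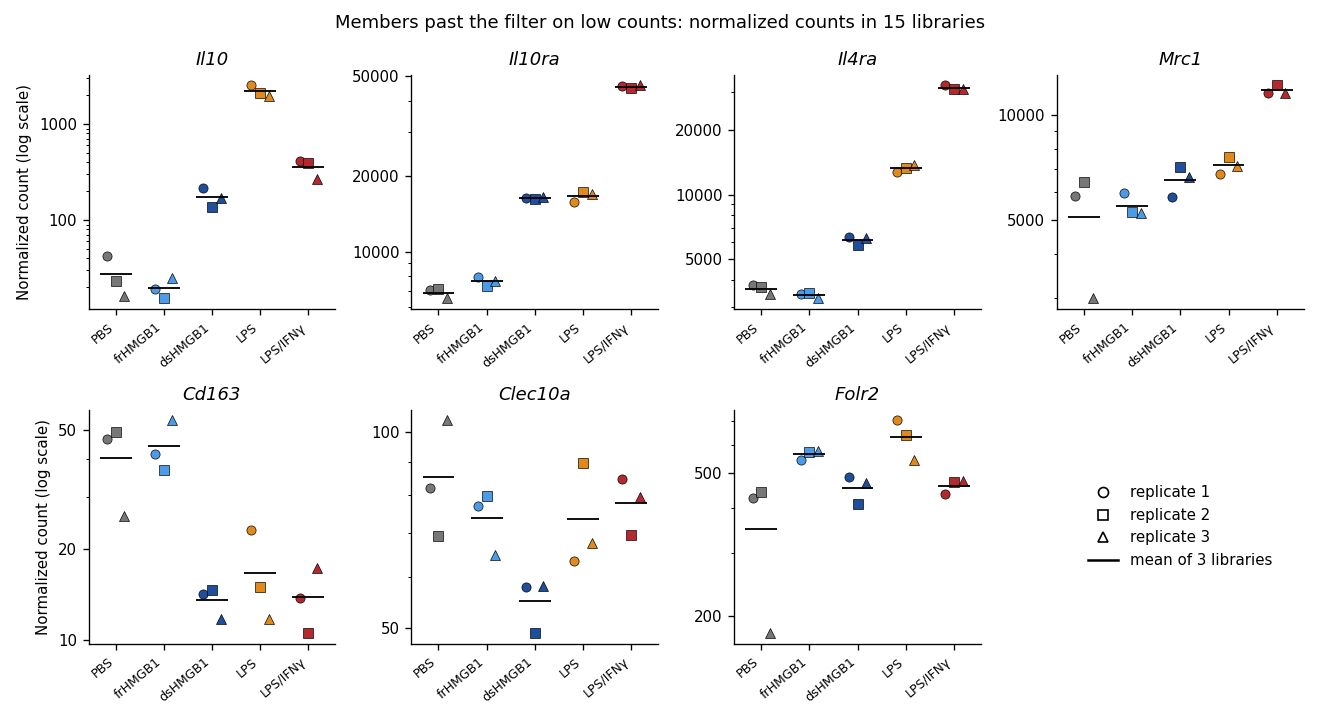
Normalized count (log scale) of the 7 members past the filter in each of 15 libraries, by condition; symbols mark the replicate and bars the mean of 3 libraries. *Il10* peaks in LPS, *Il10ra*, *Il4ra* and *Mrc1* in LPS/IFNγ, and PBS replicate 3 lies below its group in *Mrc1* and *Folr2*.

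*Il10* (ENSMUSG00000016529, chr1:131019845-131024974, GRCm38) encodes the cytokine itself. Its normalized counts were 42.7, 23.3 and 16.4 in PBS, 19.2, 15.3 and 24.8 in frHMGB1, and 217, 138 and 169 in dsHMGB1. They were 2530, 2122 and 1945 in LPS and 418, 398 and 268 in LPS/IFNγ. LPS libraries were thus the highest, LPS/IFNγ and dsHMGB1 libraries came next without overlap, and PBS and frHMGB1 libraries overlapped. Against PBS the mean rose 77.9-fold in LPS (log2 fold change 6.28, SE 0.31, adjusted p = 3.281e-09), 12.8-fold in LPS/IFNγ (3.68, SE 0.31, adjusted p = 3.278e-07) and 6.18-fold in dsHMGB1 (2.63, SE 0.31, adjusted p = 1.336e-05). LPS exceeded LPS/IFNγ 6.09-fold (adjusted p = 1.995e-05) and dsHMGB1 12.6-fold (adjusted p = 1.95e-06). *Il10* was the only tested member called lower in LPS/IFNγ than in LPS with all libraries in the fit. The smaller difference of dsHMGB1 and LPS/IFNγ, a log2 fold change of -1.05 (SE 0.28, adjusted p = 0.01102), was not called without dsHMGB1 replicate 2 (adjusted p = 0.0555) or without LPS/IFNγ replicate 1 (0.0532).

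*Il19*, an IL-10 family cytokine, lies 79729 bases from *Il10* (chr1:130932656-130940115) with 0 protein-coding genes between them. It had 0 reads in PBS and frHMGB1, and its mean was highest in LPS, at 189 ± 31.6 normalized counts, with 21.7 ± 1.92 in LPS/IFNγ and 6.92 ± 3.36 in dsHMGB1 (SD, n = 3). Its order over the conditions was thus that of *Il10*. Against a floor of 3 reads over the PBS group, the rise was at least 9.03-fold in dsHMGB1, at least 250-fold in LPS and at least 28.9-fold in LPS/IFNγ. From LPS to LPS/IFNγ it dropped by 3.12 on the log2 scale (SE 0.31, adjusted p = 0.0001083). The other family members of the list, *Il20*, *Il22* and *Il24*, did not pass the filter.

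Of 10 transcription factors known to act on *Il10*, 8 were called higher and 2 lower than PBS in each of dsHMGB1, LPS and LPS/IFNγ. Of all tested genes, 23.3% were called higher and 24.2% lower in dsHMGB1, 26.7% and 36.2% in LPS, and 29% and 31.2% in LPS/IFNγ. The lower ones were *Bhlhe40* and *Fos* in dsHMGB1 and LPS, and *Prdm1* and *Fos* in LPS/IFNγ. *Nfkb1* and *Rel*, which encode NF-κB subunits, rose in all 3, *Nfkb1* by 4.32 with LPS/IFNγ, 4.19 with LPS and 3.58 with dsHMGB1 on the log2 scale (SE 0.23 each), and by 4.03, 3.90 and 3.29 without PBS replicate 3. Between LPS/IFNγ and LPS, 2 were higher, 3 lower and 5 not called (4 higher and 4 lower without PBS replicate 3), beside a median log2 fold change of 0.06 over the list and 0.00 over all genes. Of all genes, 16.3% were higher and 9.36% lower there, and 25.1% and 24.3% without PBS replicate 3. *Prdm1*, which encodes Blimp-1, was 718 ± 31 normalized counts in LPS/IFNγ and 3829 ± 138 in LPS (log2 fold change -2.42, SE 0.27, adjusted p = 3.262e-05). *Bhlhe40*, known as a repressor of *Il10*, was 7992 ± 288 against 3108 ± 110 (1.36, SE 0.20, adjusted p = 0.0001589). *Nfil3* (-1.12, SE 0.10) and *Fos* (-1.0, SE 0.25) were also lower, and *Creb1* was higher (0.49, SE 0.18, adjusted p = 0.04391). *Maf*, a known activator of *Il10*, was 12098 ± 691 in LPS and 15184 ± 551 in LPS/IFNγ and was not called between them with all libraries (adjusted p = 0.0749), but was without PBS replicate 3 (adjusted p = 0.006428).

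*Il10ra* (ENSMUSG00000032089, chr9:45253837-45269149) encodes the ligand-binding chain of the IL-10 receptor. It had 7009.6, 7076 and 6515 normalized counts in PBS, 7948, 7304 and 7610.4 in frHMGB1 and 16291, 16156 and 16459 in dsHMGB1. It had 15825, 17249.5 and 16951 in LPS and 45646, 44742 and 45935 in LPS/IFNγ. dsHMGB1 and LPS libraries overlapped and lay above all PBS and frHMGB1 libraries, and LPS/IFNγ libraries lay above all others. The mean rose 2.37-fold over PBS in dsHMGB1 (log2 fold change 1.25, SE 0.06, adjusted p = 3.022e-08), 2.43-fold in LPS (1.28, SE 0.06, adjusted p = 2.175e-08) and 6.61-fold in LPS/IFNγ (2.73, SE 0.06, adjusted p = 1.119e-11). dsHMGB1 and LPS were not told apart, with a log2 difference of -0.03 and a 95% interval of -0.14 to 0.08 (adjusted p = 0.8931), while the *Il10* level of the same libraries differed 12.6-fold. With library size only, dsHMGB1 was higher by 0.30 (adjusted p = 0.0465), where the median of all genes was 0.35.

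The gene of the second receptor chain, *Il10rb*, was called higher than PBS in none of the 4 stimulations with all libraries, and in LPS without PBS replicate 3 (log2 fold change 0.37, adjusted p = 0.0001956). Its mean was 10452 ± 1594 normalized counts in PBS and 10564 ± 25.2 in frHMGB1, and it ranged from 8637 ± 264 in LPS/IFNγ over 9339 ± 643 in dsHMGB1 to 12418 ± 433 in LPS. It was lower in LPS/IFNγ than in PBS (adjusted p = 0.01181) and than in LPS (log2 fold change -0.52, SE 0.10, adjusted p = 0.001235). The ratio of *Il10ra* to *Il10rb* per kb of exon was 0.578 to 0.82 in the PBS libraries and 5.64 to 5.83 in those of LPS/IFNγ, with 1.34 to 1.54 for LPS and 1.76 to 1.98 for dsHMGB1 between them.

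Among 11 genes of IL-10 receptor signalling and IL-10 response, against PBS, dsHMGB1 and LPS each had 10 called higher and 0 lower, while LPS/IFNγ had 9 higher and 1 lower, beside the same shares of all genes. *Socs3*, the feedback inhibitor of cytokine receptors, had a mean of 78.9 normalized counts in PBS and was highest in LPS, at 104826, followed by LPS/IFNγ at 88412 and dsHMGB1 at 25858. *Stat3*, the signal transducer of the receptor, rose by 3.11 in LPS/IFNγ, 2.44 in LPS and 1.42 in dsHMGB1 on the log2 scale (SE 0.14 each). Many of these genes also respond to other cytokines and to TLR4. Against LPS, dsHMGB1 had 8 of the 11 lower and 0 higher, where 10.6% of all genes were lower. Without PBS replicate 3, 9 were lower, where 23.3% of all genes were lower. LPS/IFNγ had 4 lower than LPS, *Zfp36*, *Ddit4*, *Nfil3* and *Il10rb*, and 1 higher, *Stat3*, and without PBS replicate 3 it had 7 lower and 3 higher. Of all genes, 9.36% were lower and 16.3% higher in that comparison, and 24.3% and 25.1% without PBS replicate 3. *Zfp36*, which encodes the mRNA-decay factor TTP, was 46282 ± 509 in LPS and 14093 ± 201 in LPS/IFNγ (log2 fold change -1.72, SE 0.07, adjusted p = 3.396e-08). In frHMGB1, 3 of the 11 were called higher than PBS, *Socs3* (1.14, SE 0.22), *Zfp36* (0.45, SE 0.07) and *Bcl3* (0.43, SE 0.12), and 0 lower, where 1.31% of all genes were higher. The count was 4 without PBS replicate 3, where 8.41% of all genes were higher.

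*Il4ra* (ENSMUSG00000030748, chr7:125552120-125579474) encodes the chain that IL-4 and IL-13 receptors share. Its normalized counts were 3768, 3702 and 3444 in PBS, 3438, 3466 and 3277 in frHMGB1 and 6318, 5822 and 6260.1 in dsHMGB1. They reached 12699.5, 13247 and 13791 in LPS and 32335, 31174 and 31076 in LPS/IFNγ. The order was stepwise, and only PBS and frHMGB1 libraries overlapped. Over PBS the mean rose 1.68-fold in dsHMGB1 (log2 fold change 0.75, SE 0.06, adjusted p = 6.617e-06), 3.64-fold in LPS (1.86, SE 0.06, adjusted p = 5.966e-10) and 8.66-fold in LPS/IFNγ (3.11, SE 0.06, adjusted p = 5.192e-12). LPS/IFNγ exceeded LPS 2.38-fold (adjusted p = 1.684e-07), and LPS exceeded dsHMGB1 2.16-fold (adjusted p = 1.295e-06). An antisense gene, *Gm44876*, shares 571 exon bases with *Il4ra* but had 2 reads in all libraries together.

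The partners of IL-4Rα rose too. Of 7 genes of IL-4 and IL-13 receptor chains and signalling, 5 were called higher and 1 lower (*Irs2*) in dsHMGB1 against PBS, and 6 higher and 0 lower in LPS and in LPS/IFNγ. Of all genes, 23.3% were higher and 24.2% lower in dsHMGB1, 26.7% and 36.2% in LPS, and 29% and 31.2% in LPS/IFNγ. Without PBS replicate 3 the list had 6 higher and 1 lower (*Irs2*) in LPS/IFNγ, where 33.3% of all genes were higher and 34.4% lower. *Il13ra1*, the partner chain for IL-13, rose by 2.47 (SE 0.20) in dsHMGB1, 2.89 (SE 0.21) in LPS and 3.42 (SE 0.20) in LPS/IFNγ on the log2 scale. *Il2rg*, the common gamma chain, rose by 1.67, 2.10 and 2.17 (SE 0.17 each). *Stat6* was higher in LPS (0.75, SE 0.18, adjusted p = 0.005153) and in LPS/IFNγ (0.75, SE 0.18, adjusted p = 0.003715) and was not called in dsHMGB1 (0.33, SE 0.18), and without PBS replicate 3 these values were 0.52, 0.52 and 0.10. Between LPS/IFNγ and LPS, *Il4ra* and the kinase gene *Jak3* (0.71, SE 0.08, adjusted p = 0.0001352) were called higher, and none of the other 6 genes of the list was called. In that comparison 25.7% of all genes were called. In the fit without PBS replicate 3, *Il13ra1* (0.53, adjusted p = 0.000128) and *Jak1* (0.27) were also higher and *Tyk2* and *Irs2* lower. Per kb of exon, the ratio of *Il4ra* to *Il2rg* was 0.516 to 0.911 in PBS libraries, 0.374 to 0.396 in those of dsHMGB1, 0.577 to 0.665 in those of LPS and 1.35 to 1.45 in those of LPS/IFNγ. The ratio of *Il4ra* to *Il13ra1* did not exceed that of PBS in LPS/IFNγ, at 2.39 to 2.55 against 2.33 to 4.48, and was 0.787 to 1.06 in dsHMGB1 and 1.36 to 1.64 in LPS libraries.

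The other 4 tested members encode surface lectins and other surface receptors. *Mrc1* (ENSMUSG00000026712, chr2:14229392-14332057), the mannose receptor CD206, had 5844, 6443 and 2984 normalized counts in PBS, 5999, 5283 and 5233 in frHMGB1 and 5837, 7087 and 6646 in dsHMGB1. It had 6796, 7595 and 7145 in LPS and 11561, 12159 and 11561 in LPS/IFNγ. LPS/IFNγ libraries lay above all others, LPS libraries lay above those of PBS and frHMGB1 and overlapped those of dsHMGB1, and PBS replicate 3 was the lowest of all. *Mrc1* was called higher in LPS/IFNγ than in PBS (2.31-fold, log2 fold change 1.21, SE 0.22, adjusted p = 0.0005092), and by 0.93 without PBS replicate 3 (adjusted p = 3.896e-08). It was also called higher than in LPS (0.71, SE 0.22, adjusted p = 0.0245) and lower in dsHMGB1 than in LPS/IFNγ (-0.85, SE 0.22, adjusted p = 0.01063). Dendritic cell markers were also highest in LPS/IFNγ (13.9 to 15 CPM in sum). There the mean level was 7.03 CPM for *Zbtb46* and 6.57 CPM for *Xcr1*, against 0.331 and 1.68 CPM in PBS, while *Clec9a* was 0.918 against 2.61 CPM, *Cd209a* and *Flt3* were below 0.1 CPM and *Siglech* was at 0. Their part in the *Mrc1* level was not tested. The call against LPS was lost when any library of LPS or LPS/IFNγ was left out (adjusted p 0.073 to 0.105), and was kept without PBS replicate 3 (adjusted p = 3.752e-07). With all libraries, edgeR called neither dsHMGB1 (0.36) nor LPS (0.50) over PBS, while DESeq2's test did call LPS (adjusted p = 0.0423). The log2 fold changes of dsHMGB1 and LPS were 0.08 and 0.22 without PBS replicate 3.

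*Cd163* (ENSMUSG00000008845, chr6:124304656-124330527) fell with every stimulus that raised *Il10*. Its normalized counts were 46.5, 49.2 and 25.8 in PBS, 41.7, 36.8 and 53.9 in frHMGB1, 14.2, 14.7 and 11.8 in dsHMGB1, 23.3, 14.9 and 11.8 in LPS and 13.8, 10.5 and 17.4 in LPS/IFNγ. No PBS or frHMGB1 library overlapped one of the other 3 conditions, whose libraries overlapped each other. The mean was 3.04-fold lower than PBS in dsHMGB1 (log2 fold change -1.60, SE 0.36, adjusted p = 0.001824), 2.45-fold lower in LPS (-1.29, SE 0.39, adjusted p = 0.004772) and 2.95-fold lower in LPS/IFNγ (-1.56, SE 0.37, adjusted p = 0.001514). Without PBS replicate 3 these values were -1.82, -1.52 and -1.79. The gene rests on 425 reads in all.

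*Folr2* (ENSMUSG00000032725, chr7:101839988-101857194) had 427, 442 and 179 normalized counts in PBS, 545, 573 and 577 in frHMGB1 and 488, 409 and 468 in dsHMGB1. It had 702, 639.6 and 544 in LPS and 437, 472 and 474 in LPS/IFNγ. LPS and frHMGB1 libraries overlapped and lay above those of the other 3 conditions, and PBS replicate 3 was the lowest of all. *Folr2* was called higher in LPS than in PBS (1.79-fold, log2 fold change 0.84, SE 0.26, adjusted p = 0.02246), and by 0.53 without PBS replicate 3 (adjusted p = 0.001026). The call was lost without LPS replicate 1 (adjusted p = 0.0624). In frHMGB1 the log2 fold change of 0.69 (SE 0.26) was not called with all libraries (adjusted p = 0.1816) and was called at 0.38 without PBS replicate 3 (adjusted p = 0.02709). Also without that library, *Folr2* was lower in LPS/IFNγ than in LPS (-0.45, adjusted p = 0.001016), in dsHMGB1 than in LPS (-0.46, adjusted p = 0.001276) and in dsHMGB1 than in frHMGB1 (-0.32, adjusted p = 0.005562). The antisense gene *Gm10602* shares 975 exon bases with *Folr2* and had means of 89.6 normalized counts in PBS, 50 in frHMGB1 and 23.3 to 28.2 in the other conditions. Whether the counting used strand is not given in the sources used here, so reads of this pair may have been exchanged.

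*Clec10a* (ENSMUSG00000000318, chr11:70156197-70170834), the lectin MGL1, had 82.1, 69.4 and 104 normalized counts in PBS, 77.0, 79.7 and 64.7 in frHMGB1 and 57.8, 49.2 and 58.0 in dsHMGB1. It had 63.3, 89.7 and 67.6 in LPS and 84.8, 69.5 and 79.5 in LPS/IFNγ. dsHMGB1 libraries were the lowest and did not overlap any other condition. *Clec10a* was called lower in dsHMGB1 than in PBS (log2 fold change -0.61, SE 0.21, adjusted p = 0.01857), a call lost without PBS replicate 3 (adjusted p = 0.0542) or without dsHMGB1 replicate 2 (0.0765). Against frHMGB1, LPS and LPS/IFNγ it was not called.

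The 3 remaining members were at the edge of detection. *Chil3* (ENSMUSG00000040809, chr3:106147554-106167564) had 10 reads in all, in 5 libraries and at most 2 in 1 library. *Retnla* (ENSMUSG00000061100, chr16:48842551-48844461) had 5 reads, in 3 libraries. Neither had a read in LPS, where a count of 0 allows up to 0.0192 CPM over the group. *Mgl2* (ENSMUSG00000040950, chr11:70130329-70137550), which encodes the lectin MGL2, had 38 reads in 10 libraries, 13 of them from PBS, 10 from LPS/IFNγ, 9 from LPS, 4 from frHMGB1 and 2 from dsHMGB1, and 8 of the LPS reads were in 1 library. No fold is given for these counts. *Mgl2* lies 18646 bases from its paralogue *Clec10a*, and *Chil3* has the near-identical copy *Chil4*, so reads could have been split or lost between copies. The limit of 0.0192 CPM covers counting error only.

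**Figure D2:**
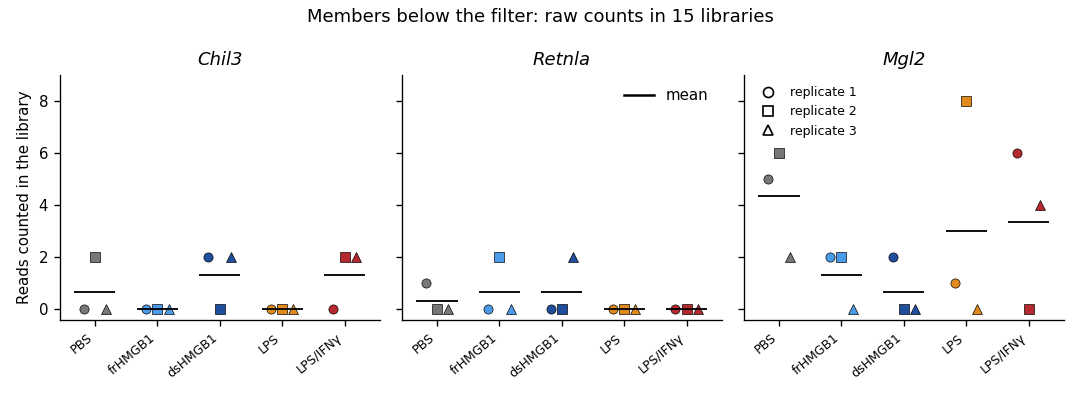
Reads counted in each of 15 libraries for the 3 members below the filter, by condition; symbols mark the replicate and bars the mean. No library has more than 2 reads of *Chil3* or *Retnla*, and the highest *Mgl2* count is 8, in LPS replicate 2.

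Of 17 other genes that IL-4 induces in macrophages, 13 passed the filter and 4 did not (*Chil4*, *Rnase2a*, *Alox15* and *Cdh1*). Against PBS, 8 were called higher and 2 lower in dsHMGB1, and 9 higher and 2 lower in LPS and in LPS/IFNγ, beside the shares of all genes given above. The counts were 9 and 3 in dsHMGB1 without PBS replicate 3, and did not change in LPS and in LPS/IFNγ. *Arg1*, the arginase of alternatively activated mouse macrophages, was not called, with means of 7.35 to 19.4 normalized counts. *Cish* had the largest log2 fold change of the list over PBS in dsHMGB1 (8.07) and in LPS/IFNγ (11.2), and rose by 10.7 in LPS. The chemokine *Ccl22* went from 9.65 ± 4.32 normalized counts in PBS to 21849 ± 118 in LPS, 14720 ± 528 in LPS/IFNγ and 2243 ± 212 in dsHMGB1. Its neighbour in function, *Ccl17*, had 1 read in PBS and 0 in frHMGB1, and means of 45.8 ± 15.5, 460 ± 17.6 and 2.12 ± 2.12 in dsHMGB1, LPS and LPS/IFNγ, so that it dropped by 7.83 on the log2 scale from LPS to LPS/IFNγ (SE 0.65, adjusted p = 1.765e-06). *Ccl24* moved the other way, from 102 ± 13.2 to 636 ± 84.9 (log2 fold change 2.63, SE 0.21, adjusted p = 4.486e-05). The 2 lower genes in each stimulation were transcription factors, *Egr2* and *Pparg*. *Pparg* went from 4692 ± 677 in PBS to 808 ± 40.5 in dsHMGB1 and 386 ± 24.4 in LPS (log2 fold change -2.54, SE 0.12, and -3.60, SE 0.13). Between LPS/IFNγ and LPS, 6 of the 13 were higher and 5 lower, where 16.3% of all genes were higher and 9.36% lower. Without PBS replicate 3 these counts were the same, beside 25.1% and 24.3% of all genes.

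**Figure D3:**
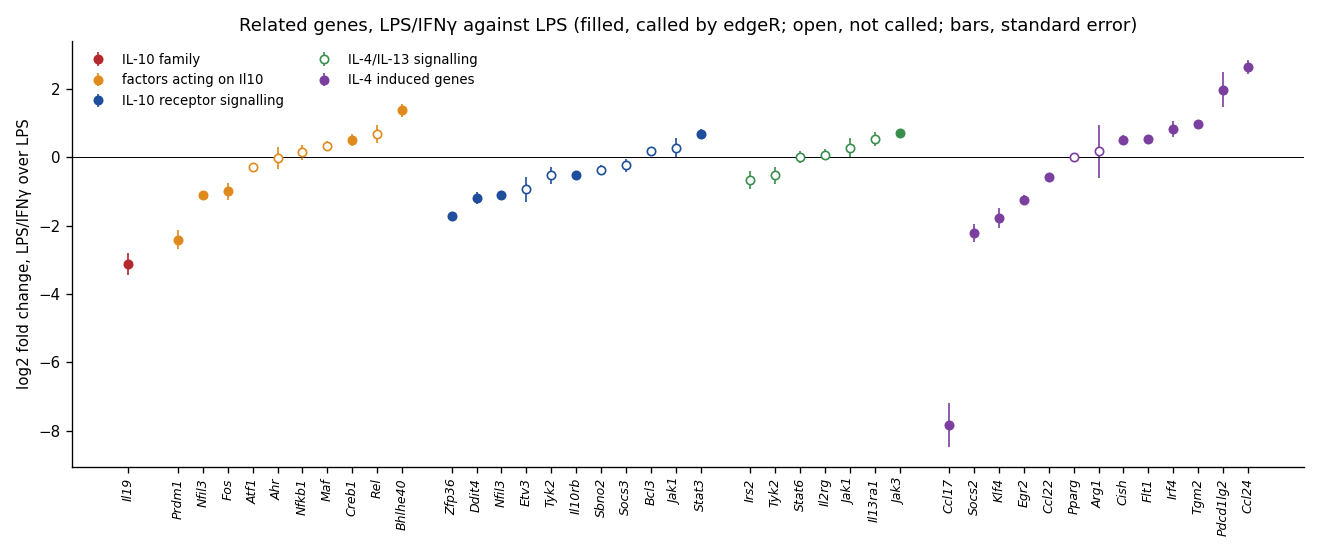
Log2 fold change (DESeq2) of LPS/IFNγ over LPS for the related genes, grouped by list, with the standard error as bars; filled points are called by edgeR and open points are not. *Il19* is the only tested gene of its list, *Prdm1* and *Ccl17* are the lowest in theirs, and *Bhlhe40*, *Stat3*, *Jak3* and *Ccl24* the highest.

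Counted together, 0 of the 7 tested members were called in frHMGB1 against PBS by edgeR, where 7% of all tested genes were called (1.31% higher and 5.69% lower). DESeq2 also called 0, and 1 member, *Folr2*, had an unadjusted p under 0.05 in edgeR. In the fit without PBS replicate 3, 1 member (*Folr2*) was called, and the share of all genes called rose to 17.5% (8.41% higher and 9.09% lower). In dsHMGB1, 3 members were higher (*Il10*, *Il10ra*, *Il4ra*) and 2 lower (*Cd163*, *Clec10a*), beside 47.4% of all genes called (23.3% higher and 24.2% lower). In LPS, 4 were higher, *Folr2* with the former 3, and *Cd163* was lower, beside 62.9% (26.7% and 36.2%). In LPS/IFNγ, 4 were higher, *Mrc1* with the former 3, and *Cd163* was lower, beside 60.3% (29% and 31.2%). Over the 7 members the median log2 fold change was 1.21 for LPS/IFNγ, 0.84 for LPS, 0.37 for dsHMGB1 and 0.09 for frHMGB1, and over all genes it was -0.12, -0.21, -0.10 and -0.01. These comparisons share the PBS libraries.

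Between stimulations, 3 members were higher (*Il10ra*, *Il4ra*, *Mrc1*) and 1 lower (*Il10*) in LPS/IFNγ than in LPS, beside 25.7% of all genes called (16.3% higher and 9.36% lower). dsHMGB1 had 2 members lower than LPS (*Il10*, *Il4ra*) and 0 higher, beside 26.4% of genes (10.6% lower and 15.8% higher), and 4 lower than LPS/IFNγ (*Il10*, *Il10ra*, *Il4ra*, *Mrc1*) and 0 higher, beside 33.2% (16.7% lower and 16.5% higher). Against frHMGB1, dsHMGB1 had 3 higher (*Il10*, *Il10ra*, *Il4ra*) and 1 lower (*Cd163*), beside 50.8% (27.7% higher and 23.1% lower). Here *Il10* was 8.83-fold higher (log2 fold change 3.14, SE 0.34, adjusted p = 4.632e-06), with a 95% interval of 5.57- to 14.0-fold. When PBS replicate 3 was left out, the share of all genes called was 49.4% in LPS/IFNγ against LPS, and for dsHMGB1 48.8% against LPS, 53.3% against LPS/IFNγ and 68.7% against frHMGB1. In the test over all 5 conditions, 5 of the 7 were called, beside 72.5% of all genes, and *Clec10a* (adjusted p = 0.0965) and *Folr2* (0.1018) were not.

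**Figure D4:**
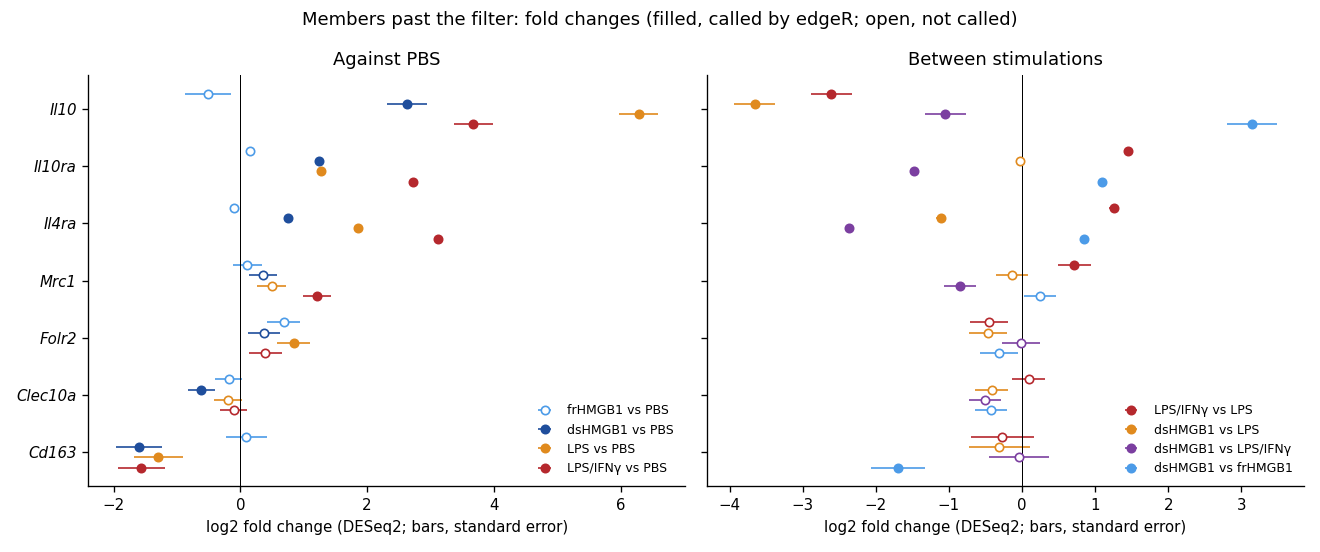
Log2 fold change (DESeq2, bars give the standard error) of the 7 tested members, against PBS on the left and between stimulations on the right; filled points are called by edgeR. *Il10* spans -0.52 in frHMGB1 to 6.28 in LPS on the left, and *Cd163* is on the negative side in all 3 stimulations in which it is called.

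DESeq2's 95% interval of the ratio of frHMGB1 to PBS was 0.428 to 1.14 for *Il10*, 0.857 to 1.01 for *Il4ra*, 1.03 to 1.20 for *Il10ra*, 0.797 to 1.47 for *Mrc1*, 0.685 to 1.66 for *Cd163*, 0.66 to 1.17 for *Clec10a* and 1.13 to 2.29 for *Folr2*. These intervals are not adjusted for the number of genes and do not bound what edgeR left uncalled. A change of the size seen in dsHMGB1 lies outside them for *Il10*, *Il10ra*, *Il4ra* and *Cd163*, and narrowly for *Clec10a*. *Il10ra* libraries of frHMGB1 all lay above those of PBS, by a log2 fold change of 0.15 (SE 0.06, adjusted p = 0.339).

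The scaling between libraries matters for the members with small changes. With library size only, the median log2 fold change of all genes against PBS was -0.89 for LPS, -0.81 for LPS/IFNγ and -0.46 for dsHMGB1, and with TMM it was -0.27, -0.15 and -0.11. Under library size only, *Il10*, *Il10ra* and *Il4ra* were still called higher in these 3 conditions and *Cd163* lower. *Mrc1* turned to -0.05 in dsHMGB1 and -0.24 in LPS and was no longer called in LPS/IFNγ (0.48, adjusted p = 0.1092). *Folr2* was no longer called in LPS (0.10, adjusted p = 0.7799), and *Clec10a* was called lower in LPS (-0.89, adjusted p = 0.001068), at the median of all genes.

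**Figure D5:**
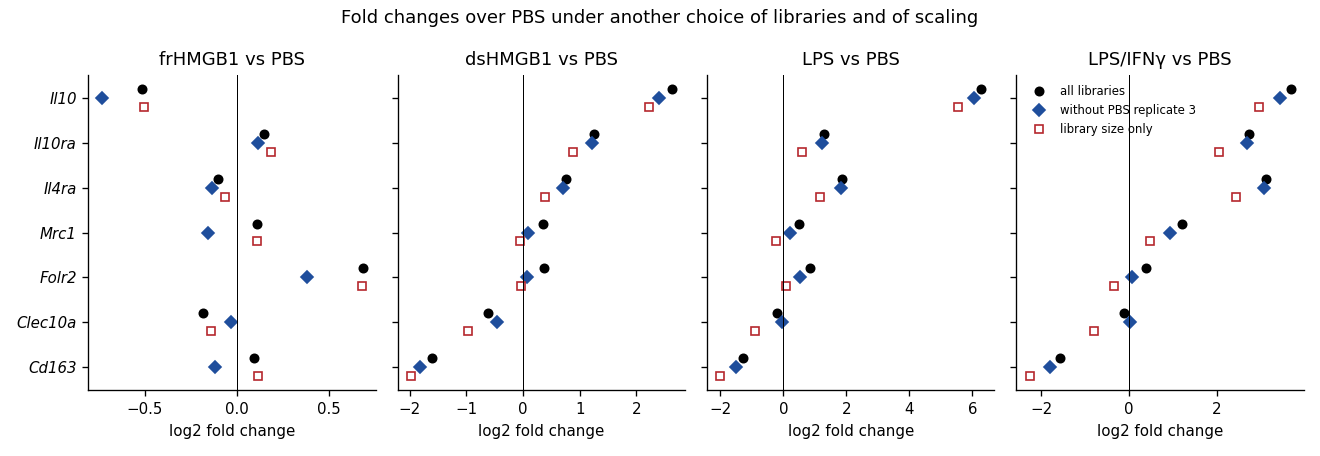
Log2 fold change over PBS of the 7 tested members with all libraries (circles), without PBS replicate 3 (diamonds) and with library size only (squares), 1 panel for each stimulation. *Il10*, *Il10ra*, *Il4ra* and *Cd163* keep their side of 0 in dsHMGB1, LPS and LPS/IFNγ, while *Mrc1*, *Folr2* and *Clec10a* each cross it in at least 1 panel.

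Genes whose pattern over the 15 libraries was most like that of a member were ranked by Pearson's r of log2(normalized count + 1) among 10101 genes, as a description. For *Il10* they included *Dtx2* (r = 0.984) and *Csf2* (0.983), the last with mean normalized counts of 651 in LPS, 31.2 in LPS/IFNγ, 25.6 in dsHMGB1 and 0 in PBS. For *Il4ra* they were *Irf8*, *Noc4l* and *Stx3* (0.997 to 0.996), and *Irf8*, an interferon-responsive transcription factor, had means of 426700 in LPS/IFNγ, 101500 in LPS, 26850 in dsHMGB1 and 13810 in PBS. For *Il10ra* they were *Procr*, *Ubl3* and *Zyx* (0.991 to 0.990). *Mrc1* was nearest to *Tgoln1* (0.995) and *Folr2* to *Mbd6* (0.961). The points of each correlation share libraries and their depth.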

How the data were processed

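Polyadenylated RNA of 15 BMDM libraries was prepared with a stranded kit. The authors used STAR with the GRCm38 genome and deposited whole-number counts per gene, neither normalized nor filtered. The submitters' processing notes also name CASAVA and DESeq2. Which program, annotation and strand setting the counting used was not given in the sources used here. The table has 51763 identifiers, of which 51661 were found in GENCODE M21 (gene positions, exon lengths) and 102 were not, and 0 columns without a sample.

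Genes passed edgeR's filterByExpr (a minimum of about 10 per library of a condition and 15 in total) in 16919 cases. Calls come from edgeR 4.0.16 and its quasi-likelihood F test (TMM, all 15 libraries in one fit, no covariate, Benjamini-Hochberg adjusted p under 0.05). DESeq2 1.42.0 in R 4.3.3 gave normalized counts and log2 fold changes without shrinkage, each with its standard error and 95% Wald interval. The procedure was tested on simulated data. Groups follow the treatment given in the labels. Counted reads of PCR copies are not independent. Promoter windows are RefSeq's (GRCm38.p6), and *Il10*, *Il10ra* and *Clec10a* are not in that table.

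The members and the lists of related genes were chosen with earlier results of these data known. Named genes are the 10 members in every comparison, and from each list some of the genes with the largest called changes and a mean of at least 100 normalized counts. Genes named beside them, *Timd4* among them, to account for the members of a count or for a role described, were chosen after their values were seen. Replicate numbers were taken not to pair samples. Alternatives were DESeq2's test, RLE normalization, no filter, 1 CPM in 3 libraries, protein-coding genes alone, the 2 compared conditions alone, each library left out, and a replicate block. Library size only, edgeR's own fold change and PBS replicate 3 left out of comparisons without PBS and of the gene lists were added after seeing the data. One of the genes most like *Il10* in pattern is not reported here.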

Additional observations from a re-analysis of the deposited data

How the results depend on the processing

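Most values kept their direction and their side of the threshold. Leaving out a library gave 335 values with the same call, 6 gained and 12 lost calls and 11 turned signs, and the other alternatives gave 476, 7, 9 and 12. Among the latter, DESeq2's test and RLE normalization reused the main fold changes and could not turn a sign. EdgeR's own fold change reused the main calls and could not change a call. With each library left out in turn, the number of members called was 0 to 1 in frHMGB1 against PBS, 4 to 5 in dsHMGB1, 4 to 6 in LPS, 5 in LPS/IFNγ, 3 to 5 in LPS/IFNγ against LPS, 2 to 3 in dsHMGB1 against LPS, 3 to 4 in dsHMGB1 against LPS/IFNγ, 4 to 6 in dsHMGB1 against frHMGB1 and 5 to 6 over the 5 conditions. Without PBS replicate 3 it was 1 in frHMGB1 (*Folr2*), where 17.5% of all genes were called. The fit of LPS and PBS alone called 3, having lost *Cd163* (adjusted p = 0.0569) and *Folr2* (0.0793). Library size only, added after seeing the data, left 2 in dsHMGB1 against LPS/IFNγ, having lost *Mrc1* (0.1237) and *Il10* (0.0721). *Clec10a* in dsHMGB1 was not called with no filter (0.1079) or in the fit of the 2 conditions alone (0.0943). *Folr2* was called in fits of 2 conditions for LPS/IFNγ against LPS (0.0005652), dsHMGB1 against LPS (0.01777) and dsHMGB1 against frHMGB1 (0.01217). The cause was not tested in any of these.

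Values that turned sign were small log2 fold changes. With single libraries left out, frHMGB1 against PBS ranged from -0.16 to 0.33 for *Mrc1* and from -0.12 to 0.26 for *Cd163*, the lowest values without PBS replicate 3, and LPS/IFNγ against PBS from -0.24 to 0.032 for *Clec10a*, the highest without it. Without LPS replicate 1, LPS/IFNγ against LPS reached 0.058 for *Cd163* (lowest -0.47) and -0.022 for *Clec10a* (highest 0.24), and dsHMGB1 against LPS 0.020 for *Cd163* (lowest -0.51). In dsHMGB1 against LPS/IFNγ the ranges were -0.21 to 0.16 for *Cd163* and -0.071 to 0.052 for *Folr2*. *Il10ra* in dsHMGB1 against LPS was 0.017 over protein-coding genes and 0.021 by edgeR's own fold change. With library size only, *Mrc1* was -0.047 in dsHMGB1 and -0.24 in LPS against PBS, 0.20 in dsHMGB1 against LPS and -0.16 in dsHMGB1 against frHMGB1. *Folr2* was -0.036 in dsHMGB1 and -0.34 in LPS/IFNγ against PBS and 0.30 in dsHMGB1 against LPS/IFNγ. *Cd163* was 0.024 in dsHMGB1 against LPS and 0.28 against LPS/IFNγ, and *Il10ra* 0.30 in dsHMGB1 against LPS.

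The replicate number as a block changed no count of members called: 0 in frHMGB1, 5 each in dsHMGB1, LPS and LPS/IFNγ against PBS, and 4, 2, 4 and 4 in the other comparisons in the order above. Of 30 pairs of samples with the same number, 8 had deviations correlated above 0.1, with a median of -0.00984. Of 60 pairs with different numbers, 10 did, with a median of 4e-05. The numbers were taken not to pair samples, which these counts do not settle. The depth limits *Cd163* (425 reads), *Mgl2* (38), *Chil3* (10) and *Retnla* (5). Calls rest on 1 pool of cells, and the LPS dose of LPS/IFNγ is given in conflicting ways.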

Other observations

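Among 11 genes of resident-type macrophages, the state that *Cd163* and *Folr2* mark in tissues, 9 passed the filter. Against PBS, 2 were called higher and 1 lower in dsHMGB1, and 1 higher and 3 lower in LPS and in LPS/IFNγ. The shares called were thus 3 of 9 and 4 of 9, where 47.4% (dsHMGB1), 62.9% (LPS) and 60.3% (LPS/IFNγ) of all genes were called. Without PBS replicate 3, 3 were higher and 3 lower in dsHMGB1, and 2 higher and 4 lower in both other conditions. *Gas6*, a bridging ligand for the uptake of dead cells, fell in all 3, from 15968 ± 2083 normalized counts in PBS to 6505 ± 106 in LPS/IFNγ, 6747 ± 422 in dsHMGB1 and 7167 ± 398 in LPS (log2 fold change -1.30, -1.24 and -1.16, SE 0.10 each). *Hmox1*, the haem oxygenase that works downstream of CD163 in haem clearance, was 15622 ± 1056 in dsHMGB1 and 15007 ± 1693 in PBS and was not called between them, while it fell to 5216 ± 175 in LPS and 3469 ± 78.4 in LPS/IFNγ. In dsHMGB1 against LPS it was higher by a log2 fold change of 1.58 (SE 0.09, adjusted p = 3.68e-08), where *Cd163* was not called. *Timd4*, a receptor for phosphatidylserine, went from 14.6 ± 10.7 in PBS to 323 ± 5.62 in LPS/IFNγ, 81 ± 14 in LPS and 62.3 ± 13.1 in dsHMGB1, and all 3 rises were called. *Igf1* was higher than PBS in frHMGB1 (0.38, SE 0.08, adjusted p = 0.02449) and in dsHMGB1 (0.48, SE 0.08, adjusted p = 0.001391) and lower in LPS/IFNγ (-0.51, SE 0.08, adjusted p = 0.0003129).

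Of 15 paralogues of the members, 7 passed the filter. *Ly75*, a relative of *Mrc1* that encodes the endocytic receptor DEC-205, rose on the log2 scale by 2.72 with LPS, 2.53 with LPS/IFNγ and 2.43 with dsHMGB1 (SE 0.32 each), where *Mrc1* was called in LPS/IFNγ alone. *Ly75* is also carried by dendritic cells, whose markers summed to 4.23 to 5.29 CPM in PBS, 3.35 to 4.39 in dsHMGB1, 7.89 to 8.73 in LPS and 13.9 to 15 CPM in LPS/IFNγ, and their part in the *Ly75* level was not tested. Without PBS replicate 3 the 3 rises of *Ly75* were 2.34, 2.14 and 2.05. *Mrc2* was higher in LPS (0.47, SE 0.15, adjusted p = 0.03647) and in LPS/IFNγ (0.41, SE 0.15, adjusted p = 0.04523), the latter a call lost without PBS replicate 3 (adjusted p = 0.1064). The relatives of *Retnla* were as scarce: *Retnlb* and *Retnlg* had no reads, and *Retn* had means of at most 1.05 normalized counts.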
